A study of Mus musculus with 48 samples.

Results

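Rps15 H137Y Ba/F3 clones, whose alleles of the small-subunit ribosomal protein gene Rps15 both carry the H137Y change (Rps15 H137Y/H137Y in the labels), were compared with wild-type (WT) clones at the level of RNA, of ribosome footprints and of translational efficiency (TE). The libraries compared are the 12 of 48 with these genotype labels: 3 H137Y clones (numbered 16, 6 and 2) and 3 WT clones (1, 2 and 3), each with 1 RNA and 1 footprint library. Clones homozygous for Rps15 P131S (24, 63 and 20), another 6 libraries, serve as a second mutant beside it. Ba/F3 is a mouse pro-B cell line that depends on interleukin 3, and the clones were made with CRISPR-Cas9. All of them grew in RPMI-1640 with 10% fetal calf serum and 1 ng/ml interleukin 3 and were exposed to 0.1 mg/ml cycloheximide for 1 min before harvest, so every group carries that block of elongation. Each lysate was divided, one share going to poly(A)-selected RNA-seq and the other to RNase I digestion and recovery of ribosome-protected fragments of 28 to 30 nt. The WT replicates are called clones here because the series describes a panel of clones, but their labels do not say whether they are edited clones or cultures of the parent line. All replicates come from 1 line, so the p-values measure the spread between replicates of a genotype, estimated over all 8 genotypes of the series. For a single gene an exact permutation test of 3 clones against 3 cannot go below 0.1.

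Rps15, also named uS19, sits in the head of the small ribosomal subunit, and its C-terminal tail, which holds both mutated residues, reaches towards the decoding site where transfer RNA pairs with the messenger. Recurrent changes in this tail are known from chronic lymphocytic leukaemia. Ribosome footprints report how many ribosomes sit on an mRNA, and TE here is the footprint change beyond the RNA change of the same gene. The integrated stress response is the pathway in which phosphorylation of the initiation factor eIF2 or a shortage of amino acids raises translation of the transcription factor Atf4, which then drives genes for amino acid synthesis, amino acid uptake and tRNA charging.

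RNA libraries held 25317713 to 27470910 estimated counts in WT and 26200445 to 34760822 in H137Y. Footprint libraries held 46806204 to 71443928 in WT and 26663087 to 61149784 in H137Y, with clone 6 the shallowest. The pro-B label went against most of its markers: of 16 pro-B and pre-B marker genes, 14 were under 1 CPM (read counts scaled to library size) in all 6 RNA libraries of the comparison, with Ebf1, Rag1, Il7r and Dntt at 0 counts. Ptprc, the pan-leukocyte antigen CD45, was at 258, 230 and 244 CPM in WT and 187, 192 and 179 CPM in H137Y. Markers of neutrophils and their precursors moved with the genotype: their summed level over 24 genes was 86 to 299 CPM in WT RNA and 1182 to 6573 CPM in H137Y RNA, and 98.5 to 534 CPM against 2720 to 16734 CPM in footprints. Clone 6 was the highest at both levels. In bulk samples, more cells of a type and more RNA per cell cannot be told apart, and the share of the results below that moves with these markers was not tested.

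Rps15 was examined first, in every sample. Its RNA was at 1446, 1433 and 1455 CPM in WT clones 1, 2 and 3 and at 1829, 817 and 875 CPM in H137Y clones 16, 6 and 2 (log2 change -0.30 with SE 0.24, adjusted p 0.352). The WT clones lay close together, while clone 16 was above all of them and clones 6 and 2 below all of them. Footprints on Rps15 were at 460, 396 and 595 CPM in WT and 459, 262 and 258 CPM in H137Y (log2 change -0.57 with SE 0.31, adjusted p 0.27), and TE did not pass the test (log2 change -0.23 with SE 0.40, adjusted p 0.861). The values count reads on the gene and do not show the H137Y allele itself. Among the P131S clones 24, 63 and 20, Rps15 RNA was at 907, 1825 and 1935 CPM, and in the 18 clones without an Rps15 mutation it was at 1412 to 2047 CPM.

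Apc2, a relative of the Wnt regulator Apc, is the next protein-coding gene downstream of Rps15 on the same strand. In GRCm38.p6 (RefSeq), Rps15 lies at chr10:80292431-80294114 and Apc2 at chr10:80295956-80318257, which leaves 1841 bases between them. Apc2 RNA was at 0.0343, 0.0355 and 0.0377 CPM in WT and 0.29, 175 and 225 CPM in H137Y (adjusted p 0.000573, or 0.553 by limma voom), and its footprints were at 0, 0 and 0.121 CPM in WT and 0.244, 202 and 132 CPM in H137Y (adjusted p 0.0047, or 0.513 by limma voom). With WT near 0 the fitted change depends on the prior count and is not given. The clones with the low Rps15 levels were the ones with Apc2 reads: P131S clone 24 had 22.1 CPM of Apc2 RNA and 9.76 CPM of footprints, whereas P131S clones 63 and 20 had 0.158 and 0.368 CPM of RNA and the 18 clones without an Rps15 mutation had 0 to 0.205 CPM. Of the 12 neighbouring genes looked at, 10 were tested in RNA and 4 passed, a share near the 41.2% of all genes tested: Apc2, Reep6 (adjusted p 2.63e-05), Ndufs7 (log2 change -0.29) and Gamt (-2.35), of which the last 3 were lower. Dazap1, the nearest gene on the other side, had a log2 change of -0.02. These neighbours were named after their values were seen.

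At an adjusted p under 0.05, RNA of 5282 of 12814 genes tested passed (41.2%), 2712 higher (21.2%) and 2570 lower (20.1%) in H137Y. Of these, 660 rose and 375 fell by at least 2-fold, and 3528 passed in each of the 6 fits that left out 1 clone. In footprints 1765 of 16217 genes passed (10.9%), 777 higher (4.79%) and 988 lower (6.09%), with 682 passing in all 6 such fits. TE passed for 473 of 12074 genes (3.92%), 169 higher (1.4%) and 304 lower (2.52%), with 123 passing in all 6. Without clone 6, the clone with the highest neutrophil markers, the counts were 5379, 1320 and 379. Leaving out a WT clone lowered them more: footprint calls were 1028 without WT clone 1, 1121 without WT clone 3 and 1180 without WT clone 2, and TE calls 224, 217 and 178 in the same order. A fit that kept the RNA and footprint library of a clone together as a replicate block called 878 genes for TE, 418 higher and 460 lower, with 449 of the 473 among them. The median change over all genes was 0.01 in RNA, 0.00 in footprints and 0.03 in TE on the log2 scale.

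RNA and footprints were compared gene by gene over the 12074 genes tested at both levels. Of 5088 RNA calls, 1209 were also called in footprints (23.8% of the RNA calls and 71.2% of the 1699 footprint calls), 1167 of them in the same direction and 42 in opposite directions. A further 3687 genes were called in RNA alone, with neither footprints nor TE called. Over the genes tested at each level, the median SE was 0.12 in RNA, 0.33 in footprints and 0.26 in TE. A change of a given size is thus called less often in footprints and TE, and a missing call there does not show that footprints stayed the same. The 304 genes with lower TE had a median log2 change of 0.29 in RNA and -0.63 in footprints. Among them, 134 had higher RNA with footprints not called, 100 had lower footprints with RNA not called, and 34 had higher RNA and lower footprints. The 169 genes with higher TE had medians of -0.14 in RNA and 0.46 in footprints, with 68 higher in footprints alone, 58 lower in RNA alone and 8 opposite.

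**Figure D1:**
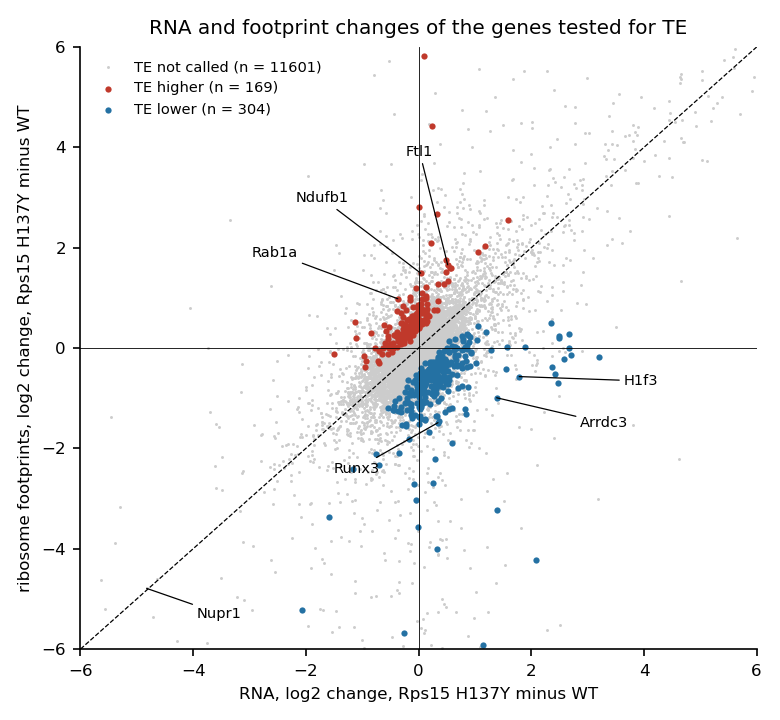
Each point is 1 of 12074 genes, with its RNA log2 change (x axis) and its footprint log2 change (y axis) in Rps15 H137Y against WT; the dashed line marks equal change, red points are the 169 genes with higher TE and blue points the 304 with lower TE. Blue points lie below the line, many of them to the right of 0 in RNA, and 154 genes lie outside the plotted range of -6 to 6.

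Of the gene lists examined, the targets of Atf4 and the integrated stress response had the largest share of members lower in H137Y RNA. Of 35 tested members 28 fell and 1 rose in RNA, with a median log2 change of -1.02, and of 37 tested in footprints 23 fell and 0 rose, with a median of -1.04. In TE 0 of 35 passed by edgeR (2 at an unadjusted p under 0.05, 1 by limma voom, 1 by DESeq2 and 4 with the replicate block), and the median was 0.15. Asparagine synthetase, Asns, was at 298, 308 and 301 CPM of RNA in WT and 73.9, 79 and 75.4 CPM in H137Y (log2 change -1.99 with SE 0.28, adjusted p 2.05e-05). Its footprints were at 784, 637 and 769 CPM in WT and 221, 190 and 244 CPM in H137Y (log2 change -1.74 with SE 0.24, adjusted p 0.000111). At both levels the H137Y clones lay together, far below the WT clones.

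The letters TGATGNAA, an Atf4 binding element, were searched on both strands in the window from 250 bases before to 50 bases after each RefSeq start. They were found for 11 of the 35 list members with a window (31.4%), against 4.51% of 27025 genes with a window, and for 7 of the 24 members with lower RNA and a window. A match describes the letters and is not a bound site. The 3 stretches of 60 bases below show where the element lies in promoters of members that fell at both levels; capitals mark the match in either orientation, and all are printed 5′ to 3′ on the minus strand of GRCm38.p6 from RefSeq. They cover chr6:7693210-7693269 for Asns, chr7:126625547-126625606 for Nupr1 and chr11:120643818-120643877 for Pycr1, with the first match letter 23, 110 and 103 bases before the start.
Asns: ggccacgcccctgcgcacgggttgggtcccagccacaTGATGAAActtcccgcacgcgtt
Nupr1: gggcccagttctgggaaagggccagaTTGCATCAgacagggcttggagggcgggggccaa
Pycr1: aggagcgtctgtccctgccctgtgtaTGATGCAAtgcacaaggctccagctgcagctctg

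Pycr1, which completes proline synthesis in mitochondria, was at 27.2, 26.8 and 27.2 CPM of RNA in WT and 5.4, 5.97 and 6.01 CPM in H137Y (log2 change -2.22 with SE 0.18, adjusted p 9.7e-09). Nupr1, a small stress-induced chromatin protein, was at 37.2, 47.1 and 58.9 CPM in WT and 2, 0.852 and 2.16 CPM in H137Y (log2 change -4.83 with SE 0.67, adjusted p 2.46e-05). Ddit3, the stress transcription factor CHOP, was at 28.1, 25.2 and 35.9 CPM in WT and 3.89, 2.66 and 5.05 CPM in H137Y (log2 change -2.94 with SE 0.31, adjusted p 7.76e-07). The clones of the genotypes did not overlap for any of these genes. Trib3, a pseudokinase induced by Atf4 and CHOP, was at 75.1, 72.5 and 89.8 CPM in WT and 13.3, 14.3 and 12.3 CPM in H137Y (log2 change -2.57 with SE 0.35, adjusted p 2.1e-05). Cebpg, a C/EBP family partner of Atf4, was at 97.5, 95.3 and 100 CPM in WT and 44.5, 52.6 and 43.6 CPM in H137Y (log2 change -1.06 with SE 0.10, adjusted p 4.04e-08). Slc38a2 and Slc3a2, an amino acid transporter and the heavy chain shared by several others, fell by less, with log2 changes of -0.89 and -0.87.

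Footprints on these mRNAs moved with their RNA. Pck2, mitochondrial phosphoenolpyruvate carboxykinase, was at 330, 313 and 349 CPM in WT and 84.7, 65.5 and 76 CPM in H137Y (log2 change -2.13 with SE 0.23, adjusted p 1.6e-05). Sesn2, a leucine-binding inhibitor of mTORC1 signalling, was at 73.7, 64.7 and 80.2 CPM in WT and 30.7, 33.8 and 29.6 CPM in H137Y (log2 change -1.22 with SE 0.15, adjusted p 2.41e-05). Neither gene had overlapping clones. The member that rose in RNA was Ppp1r15a, the phosphatase subunit GADD34 that reverses eIF2 phosphorylation (0.46, adjusted p 0.0356), and it passed in 2 of the 6 fits without a clone. Leaving out 1 clone left 26 to 31 members called in RNA and 22 to 23 in footprints.

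Atf4 itself, named after its values were seen, was not called in RNA. Its level was at 418, 421 and 418 CPM in WT and 425, 222 and 419 CPM in H137Y (log2 change -0.24 with SE 0.15, adjusted p 0.204): clones 16 and 2 lay at the WT level and only clone 6 was lower. Without clone 6 the RNA log2 change was 0.01. Its footprints were at 111 to 142 CPM in WT and 60.6, 57.3 and 77.6 CPM in H137Y (log2 change -0.97 with SE 0.20, adjusted p 0.00344), with all 3 mutant clones below all 3 WT clones. For TE the log2 change was -0.71 (adjusted p 0.122, and 0.0325 with the replicate block), so the call depends on the block. Chac1, Atf3, Cbs and Vldlr were too low to be tested.

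Aminoacyl-tRNA synthetases, which charge transfer RNAs with their amino acids, moved the same way. Of 22 tested members 15 fell in RNA and 0 rose (median log2 change -0.43), 10 fell in footprints and 0 rose (median -0.34), and in TE 0 passed by edgeR, limma voom or DESeq2, with 0 at an unadjusted p under 0.05 and 1 with the replicate block (median 0.14). Sars, the seryl-tRNA synthetase, was at 308, 298 and 319 CPM of RNA in WT and 126, 157 and 128 CPM in H137Y (log2 change -1.17 with SE 0.15, adjusted p 4.43e-06). Cars, Nars and Lars, for cysteine, asparagine and leucine, had RNA log2 changes of -1.38, -1.14 and -0.77 and footprint changes of -0.98, -1.01 and -0.66, all passing the test. Of the amino acid transporters 10 of 21 fell and 5 rose in RNA, and 8 of 23 fell and 2 rose in footprints. The shares called were 71.4% and 43.5%, against 41.2% and 10.9% of all genes tested. Slc1a4, a carrier of neutral amino acids, fell by 1.68 in RNA on the log2 scale, and Slc7a1, the cationic amino acid carrier, by 0.71 in RNA and 0.59 in footprints. Slc38a2, Slc3a2 and Slc6a9 stand both in the transporter list and among the Atf4 targets.

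**Figure D2:**
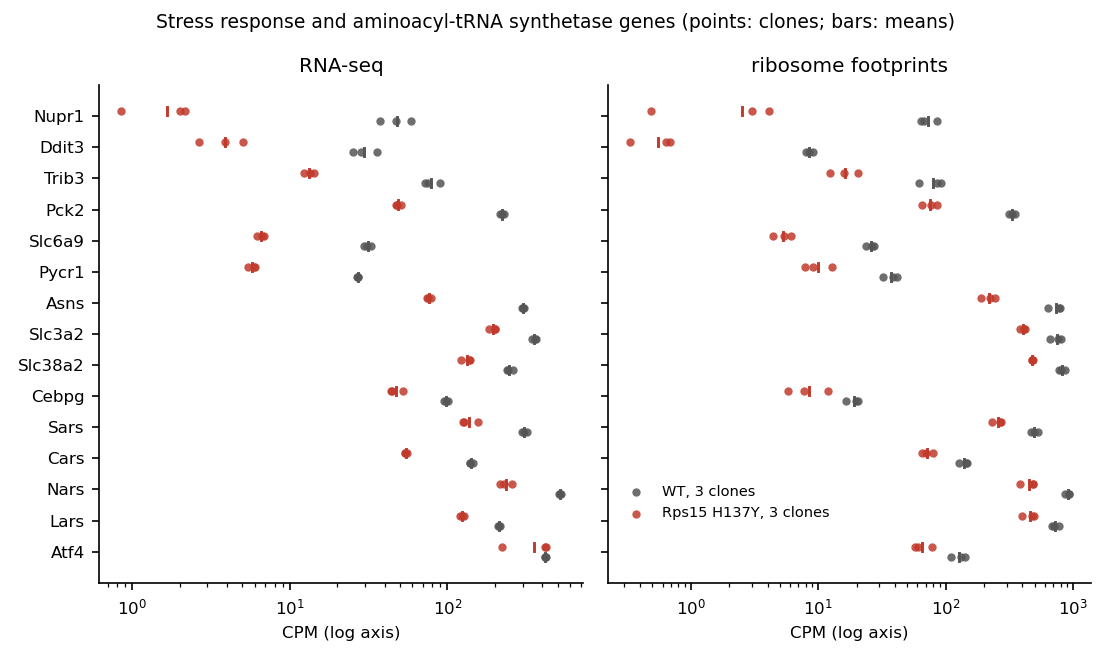
Points give the CPM of each clone on a log axis for 15 stress response and aminoacyl-tRNA synthetase genes, RNA at left and footprints at right, with WT in grey, Rps15 H137Y in red and bars at the means. The genotypes are separate for every gene in RNA except Atf4, whose WT clones at 418, 421 and 418 CPM lie among the mutant clones at 425, 222 and 419 CPM.

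Most ribosomal protein genes rose in RNA by small amounts, and few passed in footprints. Of the small-subunit proteins 27 of 33 rose in RNA and 0 fell (median log2 change 0.27), while in footprints 3 rose and 1 fell (median 0.10), or 0 and 1 without H137Y clone 2. Of the large-subunit proteins 35 of 49 rose in RNA and 0 fell (median 0.26), and 2 rose in footprints (median 0.06), or 0 by edgeR without H137Y clone 16. Rps10 had 1391, 1383 and 1407 CPM of RNA in WT and 1911, 1821 and 1972 CPM in H137Y, and 1491, 1127 and 1326 CPM of footprints in WT and 958, 831 and 874 CPM in H137Y (TE log2 change -0.98 with SE 0.19, adjusted p 0.00136). Its RNA was higher and its footprints lower in every mutant clone. TE was also lower for Rps25 (-0.46), Rps3a1 (-0.76) and Rps15a (-0.59), and for Rpl27, Rpl29 and Rpl23, and higher for Rps27l (0.88). Without WT clone 1, 2 small-subunit and 0 large-subunit proteins were called in TE by edgeR. Ribosomal protein genes have many near-identical pseudogene copies, so their levels are uncertain to the extent that the authors' counting split reads among them.

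Other parts of the translation machinery shared this direction in RNA. Of 52 initiation, elongation and release factors 22 rose and 6 fell in RNA (median 0.15), beside 21.2% and 20.1% of all genes tested. Eef1a1, which delivers charged tRNA to the ribosome, was at 12577, 12806 and 13139 CPM in WT and 18136, 21743 and 18016 CPM in H137Y (log2 change 0.59 with SE 0.06, adjusted p 1.07e-07). Eef1b2, its nucleotide exchange factor, had lower TE (log2 change -0.81 with SE 0.15, adjusted p 0.00137), as did the translocase Eef2 (-0.49), whereas TE was higher for the eIF2 subunit gene Eif2s3x (0.76) and the eIF2B subunit gene Eif2b2 (0.78). Without WT clone 2 this list had 1 TE call in place of 6.

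Many assembly factors of the small subunit rose, 31 of 64 in RNA with 3 lower (median 0.27) and 16 of 64 in footprints with 0 lower (median 0.28). Over all genes tested, 21.2% rose in RNA and 4.79% in footprints. Polr1a, placed in this list, encodes the largest subunit of RNA polymerase I and is not itself an assembly factor of the small subunit. Polr1a was at 32, 30.9 and 29.5 CPM of RNA in WT and 56, 69.8 and 56.5 CPM in H137Y (log2 change 0.98 with SE 0.12, adjusted p 1.3e-06), with a footprint change of 1.08. Rrp12, which acts in subunit export and maturation, changed by 1.02 in RNA and 0.90 in footprints. The helicase Dhx37 and the processome protein Utp20 rose by 1.07 and 0.84 in RNA. The footprint count for this list was 7 without WT clone 2.

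Genes of stalled ribosome rescue and quality control split by direction, 12 of 27 rising and 5 falling in RNA, beside 21.2% and 20.1% of all genes tested. Gcn1, the collision sensor that activates Gcn2, rose (log2 change 0.69 with SE 0.08, adjusted p 2.01e-06), as did the collision ubiquitin ligase Zfp598 (0.45), while Usp21, which removes ubiquitin from small-subunit proteins, fell (log2 change -0.74 with SE 0.09, adjusted p 1.3e-06), as did the ligase Rnf14 (-0.52). Rnf10, the ligase that marks stalled small subunits, had 265, 252 and 252 CPM of RNA in WT and 336, 413 and 294 CPM in H137Y. Its footprints were at 29.7, 28 and 31.6 CPM in WT and 23.3, 18.9 and 21.7 CPM in H137Y, and its TE was lower (log2 change -0.89 with SE 0.14, adjusted p 8.4e-05).

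Replication-dependent histone genes had the lowest median TE change of the lists examined. Of 56 tested 39 rose in RNA and 0 fell (median log2 change 1.62), while of 64 tested in footprints 3 rose and 1 fell (median 0.12), and TE was lower for 13 of 54 and higher for 0 (median -1.42). These mRNAs normally end in a stem-loop and not in a poly(A) tail, and the RNA libraries were poly(A)-selected. The median member had 0.477 CPM of RNA in WT and 1.65 CPM in H137Y, against 313 and 311 CPM of footprints. H1f3, a linker histone, was at 0.926, 1.35 and 1.32 CPM of RNA in WT and 5.34, 3.02 and 4.05 CPM in H137Y, and at 2678, 2598 and 3041 CPM of footprints in WT and 1992, 2120 and 1495 CPM in H137Y (TE log2 change -2.33 with SE 0.29, adjusted p 3.46e-06). TE was also lower for H4c18 (-2.72), H4c2 (-2.89) and H2bc3 (-2.82), calls that limma voom did not make (adjusted p 0.0644, 0.221 and 0.387). H2bc21, whose transcripts include a polyadenylated form, was at 16.1, 16.7 and 17.1 CPM of RNA in WT and 56.4, 44.4 and 55 CPM in H137Y (log2 change 1.64 with SE 0.13, adjusted p 6.49e-09). Histone genes are near-identical copies, so the split of reads among them is uncertain. Without WT clone 3 the list had 8 TE calls in place of 13, and without H137Y clone 16 it had 1 higher and 1 lower in footprints.

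Most transcripts encoded by the mitochondrial genome rose in RNA. Of 13 genes 10 rose in RNA and 0 fell (median 0.82), and by edgeR, limma voom and DESeq2 0 passed in footprints (median -0.08) or in TE (median -0.66), with 2 and 4 at an unadjusted p under 0.05. CYTB, the cytochrome b gene, was at 1964, 1910 and 1937 CPM in WT and 4760, 7963 and 4892 CPM in H137Y (log2 change 1.60 with SE 0.16, adjusted p 2.13e-07). ND4, a complex I subunit, had a log2 change of 1.22 and ND2 one of 0.92. Clone 6 was the highest of the 3 mutant clones for CYTB, and ND4 overlaps ND4L, so their reads are uncertain.

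Genes named for higher TE were the 12 with the largest change among those that passed in all 6 fits without a clone, had non-overlapping clones and held at least 5 CPM in both assays. Ndufb1, an accessory subunit of complex I, had 121, 139 and 138 CPM of RNA in WT and 140, 99.5 and 168 CPM in H137Y. Its footprints were at 117, 96.2 and 93.8 CPM in WT and 266, 277 and 322 CPM in H137Y (TE log2 change 1.49 with SE 0.22, adjusted p 3.05e-05). RNA overlapped between genotypes and footprints did not. Rab1a, a GTPase of transport from the endoplasmic reticulum to the Golgi, had 182, 193 and 193 CPM of RNA in WT and at most 165 CPM in H137Y, with 150, 156 and 129 CPM of footprints in WT and 254, 269 and 337 CPM in H137Y (TE log2 change 1.38 with SE 0.20, adjusted p 3.05e-05). Nfya, a subunit of the CCAAT-binding factor NF-Y, had 49.3, 52.3 and 53.3 CPM of RNA in WT and 23.9, 24.2 and 23.8 CPM in H137Y, with 29.6, 26.2 and 28.6 CPM of footprints in WT and 41.2, 25.3 and 30.2 CPM in H137Y (TE log2 change 1.34 with SE 0.19, adjusted p 1.61e-05). Its RNA was much lower in every mutant clone while its footprints overlapped. Ftl1, the ferritin light chain, rose at both levels, by 0.52 in RNA and 1.66 in footprints. Ftl1 footprints were at 85.2, 65.4 and 112 CPM in WT and 310, 319 and 200 CPM in H137Y (TE log2 change 1.18 with SE 0.24, adjusted p 0.00275), and its pseudogene copies make this level uncertain.

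The other genes named for higher TE were of different kinds. Footprints rose with RNA not called for Ube2k, a ubiquitin-conjugating enzyme (TE 1.20), and for Ncoa4, the receptor that sends ferritin to lysosomes (TE 0.96, not called with only both genotypes in the fit). Sord, sorbitol dehydrogenase, rose in RNA by 0.35 and in footprints by 1.27. For Cers5, a ceramide synthase, Tipin, a replication fork protein, and Slc33a1, an acetyl-CoA transporter, RNA was lower and footprints higher (TE 1.15, 1.14 and 0.98). For Gmnn, the replication licensing inhibitor geminin, the changes were -0.22 in RNA (adjusted p 0.0693) and 0.75 in footprints (adjusted p 0.00551), with TE 1.01. Lsm5, a ring subunit in RNA decay and splicing, had changes of -0.58 in RNA (adjusted p 4.13e-05) and 0.34 in footprints (adjusted p 0.178), with TE 0.95.

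Of the 12 genes named for lower TE by the same rule, Arrdc3, an alpha-arrestin that acts in receptor trafficking, had the largest change. It had 15.5, 14.2 and 15 CPM of RNA in WT and 45.1, 24.4 and 47.4 CPM in H137Y, with 7.83, 8.13 and 8.56 CPM of footprints in WT and 4.58, 2.43 and 5.28 CPM in H137Y (TE log2 change -2.34 with SE 0.36, adjusted p 7.62e-05). Every mutant clone was above the WT clones in RNA and below them in footprints, where the adjusted p was 0.0506. Runx3, a Runt transcription factor of blood cells, had 47.7, 52.1 and 50.8 CPM of RNA in WT and 58.7, 77.5 and 54.9 CPM in H137Y, with 7.92, 6.55 and 11 CPM of footprints in WT and 3.33, 3.77 and 1.99 CPM in H137Y (TE log2 change -1.81 with SE 0.31, adjusted p 0.000318). Tmf1, a Golgi coiled-coil protein, had 38.8, 40.4 and 43.2 CPM of RNA in WT and 48.6, 62.2 and 45.9 CPM in H137Y, with 12.8, 12.5 and 12.5 CPM of footprints in WT and 5.38, 3.66 and 4.82 CPM in H137Y (TE log2 change -1.77 with SE 0.23, adjusted p 3.46e-06). Klhl11, a substrate adaptor of cullin 3 ligases, had 6.59, 6.15 and 6.93 CPM of RNA in WT and 12.4, 9.63 and 14 CPM in H137Y, with 40, 33.5 and 34.5 CPM of footprints in WT and 22, 15.7 and 25.5 CPM in H137Y (TE log2 change -1.62 with SE 0.23, adjusted p 2.88e-05). Runx3, Tmf1 and Klhl11 thus had higher RNA and lower footprints in each of the 3 mutant clones.

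For Ppp6r2, a regulatory subunit of protein phosphatase 6, footprints fell by 1.80 and TE by 1.61 on the log2 scale. Arid5b, a DNA-binding chromatin regulator, fell in RNA by 0.70 and in footprints by 2.33. Chd2, a chromatin remodeller, and Zbtb6, a zinc-finger protein, had lower footprints in all 3 mutant clones and higher RNA in clones 16 and 2 only (TE -1.35 and -1.47). In clone 6, Chd2 RNA was at 81.2 CPM, inside the WT range, and Zbtb6 RNA at 21.4 CPM, below it, and the TE call of Zbtb6 was lost with only both genotypes in the fit. RNA rose with footprints not called for Itprip (TE -1.29), which binds inositol trisphosphate receptors, and for Ssx2ip (TE -1.49), a centrosome maturation factor. Footprints fell with RNA not called for Nfkbiz, a nuclear regulator of NF-kB (TE -1.37), and for Stxbp5, a SNARE-binding protein also named tomosyn (TE -1.28).

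**Figure D3:**
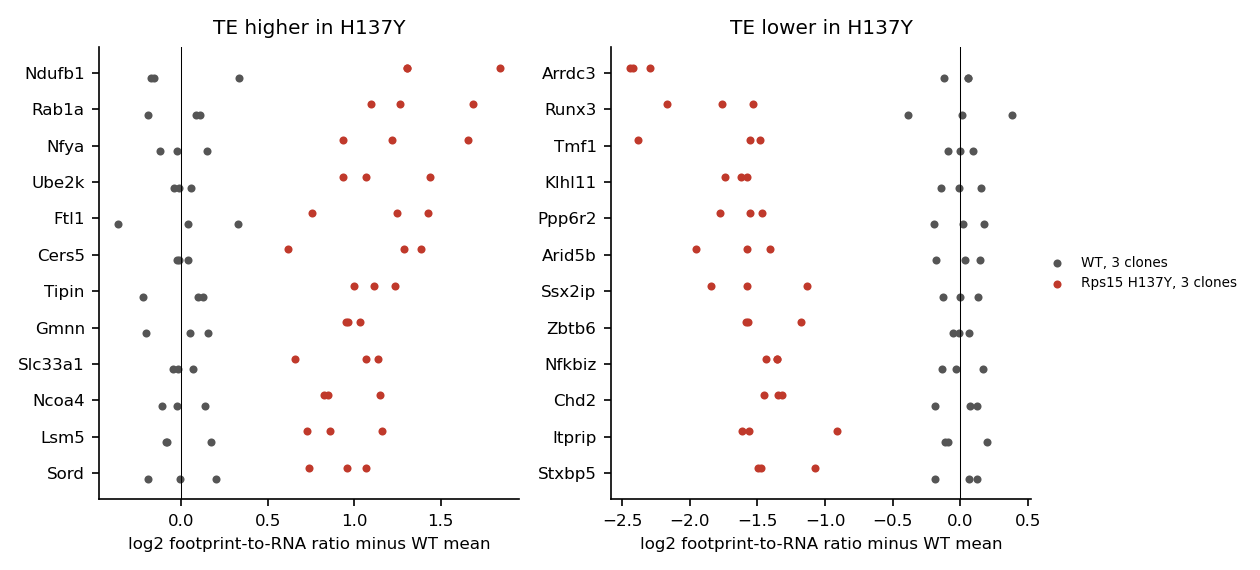
Points give, for each clone, the log2 ratio of footprints to RNA minus the mean of the 3 WT clones, for the 12 genes named for higher TE (left) and the 12 for lower TE (right), with WT in grey and Rps15 H137Y in red. The clones of the genotypes do not overlap for any gene shown, a condition for being named, and Arrdc3 and Ndufb1 lead the panels with TE changes of -2.34 and 1.49.

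All 42 genes called in opposite directions by RNA and footprints passed in TE. That largely follows from those calls, because TE is the footprint change beyond the RNA change in the same libraries. The footprint call held in all 6 fits without a clone for 11 of the 42. The RNA call, the footprint call and the TE call each held in all 6 fits for 7 of the 42: Cul3, Man1a2, Rab1a, Ube3b, Tmf1, Cramp1 and Klhl11. Among the others, Chd2, Runx3, Zbtb6, Cers5, Tipin and Slc33a1 lost 1 call or more in these fits. The footprint call of Chd2 was lost without H137Y clone 6 (log2 change -0.65), WT clone 1 or WT clone 2, and the RNA call of Runx3 without H137Y clone 6 (0.18, adjusted p 0.0681). For Zbtb6 the RNA call was lost without H137Y clone 2 (0.43) and the footprint call without H137Y clone 6 (-0.57), and for Cers5 the RNA call without H137Y clone 6 (-0.19). The footprint calls of Tipin and Slc33a1 were each lost in 5 of the 6 fits. Norad, a long non-coding RNA, was an added case named after its values were seen: its RNA was at 196, 200 and 207 CPM in WT and 216, 287 and 236 CPM in H137Y (log2 change 0.30 with SE 0.08, adjusted p 0.00634), while its few footprints were at 1.41, 1.37 and 1.01 CPM in WT and 0, 0 and 0 CPM in H137Y.

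Zinc-finger protein genes, a large family of mostly DNA-binding factors, had a lower median change in footprints than in RNA. In RNA 79 of 300 fell and 38 rose (median -0.16), in footprints 43 of 310 fell and 2 rose (median -0.50), and in TE 17 of 296 were lower and 0 higher (median -0.30). The 39% called in RNA lay near the 41.2% of all genes, while 14.5% in footprints and 5.74% in TE stood beside 10.9% and 3.92%. Zfp292 had 49.2, 51.3 and 49.3 CPM of footprints in WT and 29.3, 26.7 and 26 CPM in H137Y (log2 change -0.87 with SE 0.14, adjusted p 0.000372), with an RNA change of 0.01. Zfp655 had 13.1, 12.8 and 14 CPM of footprints in WT and 4.44, 6.87 and 6.37 CPM in H137Y, with an RNA change of 0.01 (TE log2 change -1.16 with SE 0.25, adjusted p 0.00376). In both genes the footprint values did not overlap. Zfp296 was an exception, rising by 1.68 in footprints and 1.68 in RNA. The counts depended on single clones: without WT clone 1, 24 of these genes were called in footprints, and without WT clone 2, 3 were called in TE.

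Histone and chromatin modifiers rose in RNA for 33 of 75 and fell for 16 (median 0.15), yet in footprints 12 fell and 2 rose (median -0.14), and TE was lower for 15 and higher for 2 (median -0.32). Kmt2c, a histone H3 lysine 4 methyltransferase, had 61.5, 59.8 and 66.3 CPM of RNA in WT and 110, 88.4 and 98.6 CPM in H137Y, with 52.6, 52.2 and 48.7 CPM of footprints in WT and 42.3, 38.2 and 40.8 CPM in H137Y (TE log2 change -0.97 with SE 0.18, adjusted p 0.000955). Its RNA was higher in every mutant clone. The acetyltransferases Kat6a and Kat2a had TE changes of -0.74 and -0.70. Without WT clone 2, 5 of the modifiers were called in TE, and without WT clone 1, 8 were called in footprints.

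Of the RNA polymerase II, general transcription factor and Mediator genes 27 of 88 were higher and 20 lower in RNA (median 0.02), beside 21.2% and 20.1% of all genes, with 14 higher and 6 lower in footprints (median 0.05), and 4 higher and 3 lower in TE. Without WT clone 2 these were 6 and 4 in footprints and 2 and 1 in TE. Med25, a Mediator subunit, had lower TE (log2 change -1.18 with SE 0.20, adjusted p 0.00026) with higher RNA (0.44). TE was higher for the polymerase subunit gene Polr2c (0.52), for Gtf2h3 of TFIIH (0.74) and for Med29 (0.78). Of the haematopoietic transcription factors 11 of 35 rose and 12 fell in RNA, and 1 rose and 8 fell in footprints, or 0 and 5 without H137Y clone 16. In the full fit 65.7% were called in RNA and 25.7% in footprints, against 41.2% and 10.9% of all genes tested. Ikzf2, the lymphoid factor Helios, had 121, 145 and 147 CPM of footprints in WT and 56.3, 62.6 and 73.2 CPM in H137Y (log2 change -1.10 with SE 0.15, adjusted p 0.0001), with an RNA change of -0.17 (adjusted p 0.345). Ikzf1, Ikaros, fell by 0.73 in RNA and by 1.03 in footprints.

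Some nuclear genes of oxidative phosphorylation had higher TE. TE was called for 8.7% of complex I genes and 10.3% of complex III, IV and V genes, against 3.92% of all genes tested. Of the complex I genes TE was higher for 4 of 46 and lower for 0 (median 0.17): Ndufb1, Ndufs3 (0.62), Ndufb2 (0.62) and Ndufa1 (0.52). In RNA 6 of these genes rose and 12 fell, or 5 and 6 without H137Y clone 6, and in footprints 7 rose and 2 fell, or 3 and 1 without WT clone 2. Of the tested complex I genes 39.1% were called in RNA, near the 41.2% of all genes. Of the complex III, IV and V genes TE was higher for 4 of 39 and lower for 0 (median 0.15): Cox6c (0.93), Atp5pb (0.64), Cox5b (0.46) and Uqcrq (0.57). Cox6c, a cytochrome c oxidase subunit, had 206, 153 and 162 CPM of footprints in WT and 306, 334 and 389 CPM in H137Y (log2 change 0.98 with SE 0.13, adjusted p 7.58e-05). Without H137Y clone 6 the complex I genes had 1 TE call, and without WT clone 2 the complex III, IV and V genes had 1.

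Iron handling genes rose for 9 of 15 and fell for 3 in RNA (median 0.49), and rose for 6 with 0 lower in footprints (median 0.43). Fth1, the ferritin heavy chain, had 431, 473 and 423 CPM of footprints in WT and 857, 681 and 770 CPM in H137Y (log2 change 0.80 with SE 0.18, adjusted p 0.00737), beside the higher Ftl1 and Ncoa4 footprints above. Translation of both ferritin chains is known to be held back by iron regulatory proteins. Hmox1, haem oxygenase, fell in RNA (log2 change -0.92 with SE 0.14, adjusted p 2.15e-05) and had a TE change of 0.70, which passed in the full fit but in 0 of the 6 fits without a clone and not by limma voom.

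**Figure D4:**
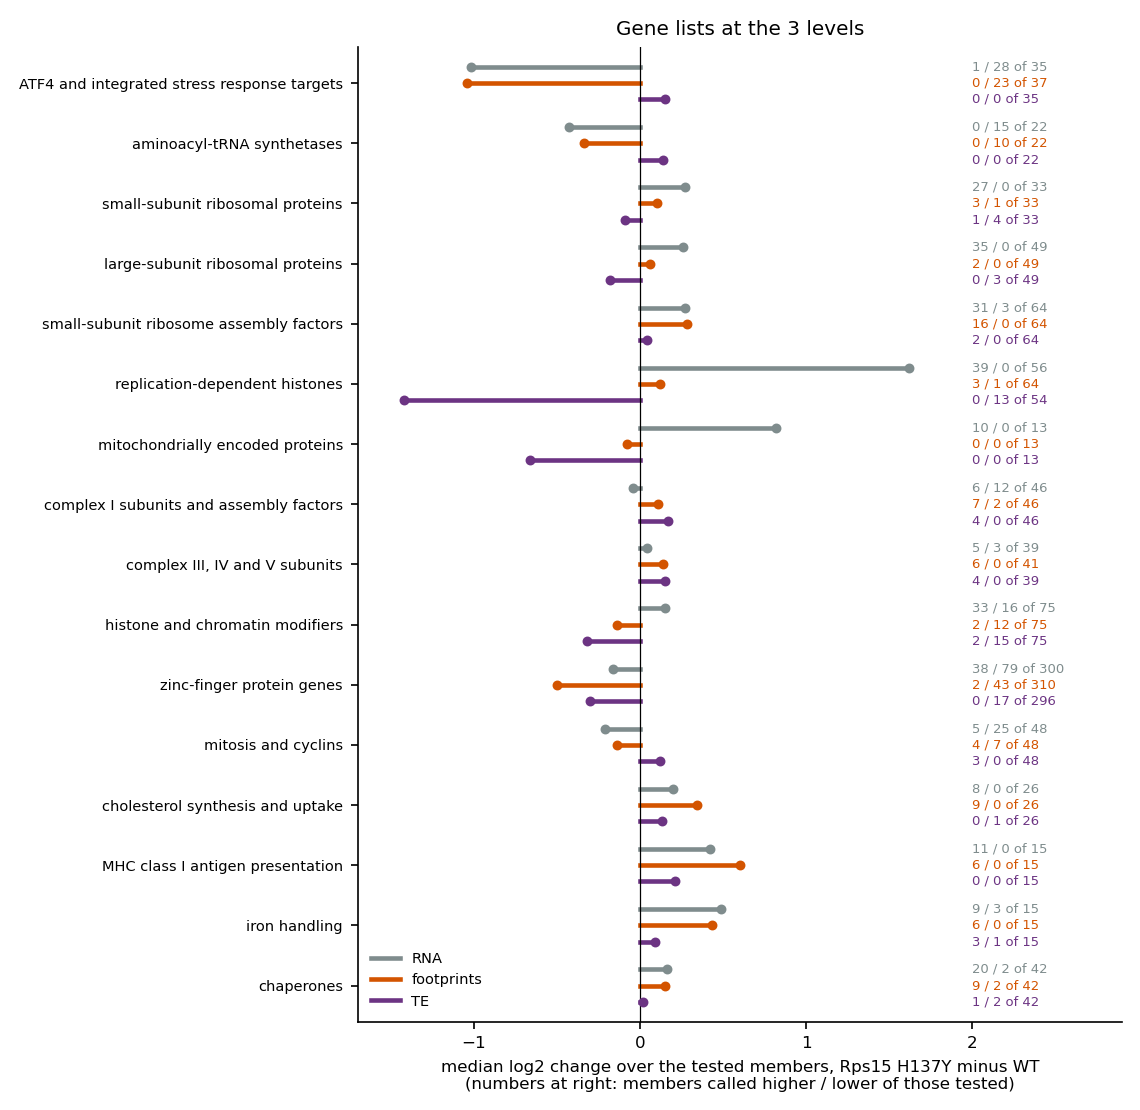
For 16 gene lists, bars run from 0 to the median log2 change of the tested members in RNA (grey), footprints (orange) and TE (purple), and the numbers at right give members called higher / lower of those tested. The Atf4 targets lie at -1.02 and -1.04 in RNA and footprints with TE near 0, whereas the histones lie at 1.62 in RNA and -1.42 in TE.

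Several genes with the largest rises in RNA and footprints were granule and secretory genes of myeloid cells, the same class as the markers above. Of 24 neutrophil and precursor markers 19 were tested in RNA, of which 17 rose and 0 fell (median log2 change 4.65, 15 of them in all 6 fits without a clone). Markers near 0 in WT could be tested only through counts in other libraries. The share that rose and the median thus follow in part from that condition. In footprints 14 of 22 rose, 9 of them in all 6 fits, and 0 fell, and in TE 0 of 19 passed by edgeR, limma voom or DESeq2, with 0 at an unadjusted p under 0.05 and 1 with the replicate block. Mmp8, neutrophil collagenase, was at 0.48, 3.13 and 0.377 CPM of RNA in WT and 60.4, 218 and 26.9 CPM in H137Y (log2 change 6.25 with SE 1.12, adjusted p 0.000277). S100a8, a subunit of calprotectin, was at 22.8, 50.2 and 5.79 CPM of footprints in WT and 578, 2593 and 328 CPM in H137Y (log2 change 5.47 with SE 1.11, adjusted p 0.00396), a call lost with only both genotypes in the fit. Clone 6 was the highest for both. Chil3, a chitinase-like protein of myeloid cells, was at 0.0686, 0.107 and 0 CPM of RNA in WT and 13.1, 14.2 and 5.09 CPM in H137Y, and Ctsg, the granule protease cathepsin G, at 0, 0.497 and 0 CPM in WT and 9.83, 22.8 and 3.2 CPM in H137Y. With WT near 0, no fold is given for Chil3 and Ctsg. Camp and Fcnb, which also define neutrophils and their precursors, were at most 0.087 CPM in every library of the comparison. Elane and Retnlg, further such markers, were at most 0.154 and 0.32 CPM of RNA, and in clone 6 their footprints were at 1.6 and 3.25 CPM against at most 0.0547 and 0.0912 CPM in WT.

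Mcpt8, a protease of basophils, was at 0.0343, 0.32 and 0 CPM of RNA in WT and 9.89, 41.1 and 5.09 CPM in H137Y, a rise that limma voom did not call (adjusted p 0.0817). Ms4a3, a membrane protein of granulocyte and monocyte progenitors, was at 0.48, 1.46 and 0.0377 CPM in WT and 24.4, 97.1 and 13.9 CPM in H137Y. Clec5a, a myeloid C-type lectin receptor, was at 0.137, 0.924 and 0.113 CPM in WT and 15.7, 49.5 and 7.02 CPM in H137Y. All 3 genes were low in every WT clone and higher in every mutant clone, but non-overlapping clones were a condition for genes named by the size of their change. With such low WT levels, they reached a mean of 5 CPM only through the mutant clones. Stfa1, Stfa3 and Cstdc5, members of the stefin cluster of cysteine protease inhibitors, also rose at both levels, but they are near-identical copies and their levels are uncertain. Csta1 of the same family was at 0.304, 0.401 and 0 CPM of footprints in WT and 13.8, 46 and 9.4 CPM in H137Y. Rnase6, a secreted ribonuclease, was at 0, 0 and 0.263 CPM of footprints in WT and 15.9, 5.9 and 15.2 CPM in H137Y, and Mgam, maltase-glucoamylase, at 0.111, 0.219 and 0.0202 CPM in WT and 6.2, 25.5 and 3.32 CPM in H137Y.

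Erythroid markers rose as well, 4 of 6 tested in RNA (3 of them in all 6 fits without a clone) and 2 of 7 in footprints (0 of them in all 6), with 0 lower at either level. Hbb-b1, an adult beta globin, was at 1.34, 2.45 and 2.07 CPM of RNA in WT and 22.8 to 201 CPM in H137Y (log2 change 5.95 with SE 1.33, adjusted p 0.00171), with clone 6 the lowest of the mutant clones. Globin genes are near-identical pairs, so the split between copies is uncertain. Kel, the Kell blood group protein, was at 0.0343, 0.0355 and 0 CPM in WT and 24, 5.61 and 24.9 CPM in H137Y, with clone 6 again the lowest. Alas2, the erythroid enzyme of heme synthesis, was at or near 0 in both genotypes. T-cell markers summed to under 2 CPM in every library of the comparison, and those of mast cells and basophils to 442 to 475 CPM in WT RNA and 343 to 429 CPM in H137Y RNA. Most of the latter sum was Gata2, at 432, 398 and 428 CPM of RNA in WT and 332, 305 and 307 CPM in H137Y. Of the 12 members, 10 were under 1 CPM in every WT RNA library and 8 in every H137Y RNA library. In footprints the mast cell and basophil list, which holds Mcpt8, summed to 123 to 205 CPM in WT and 158 to 409 CPM in H137Y.

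**Figure D5:**
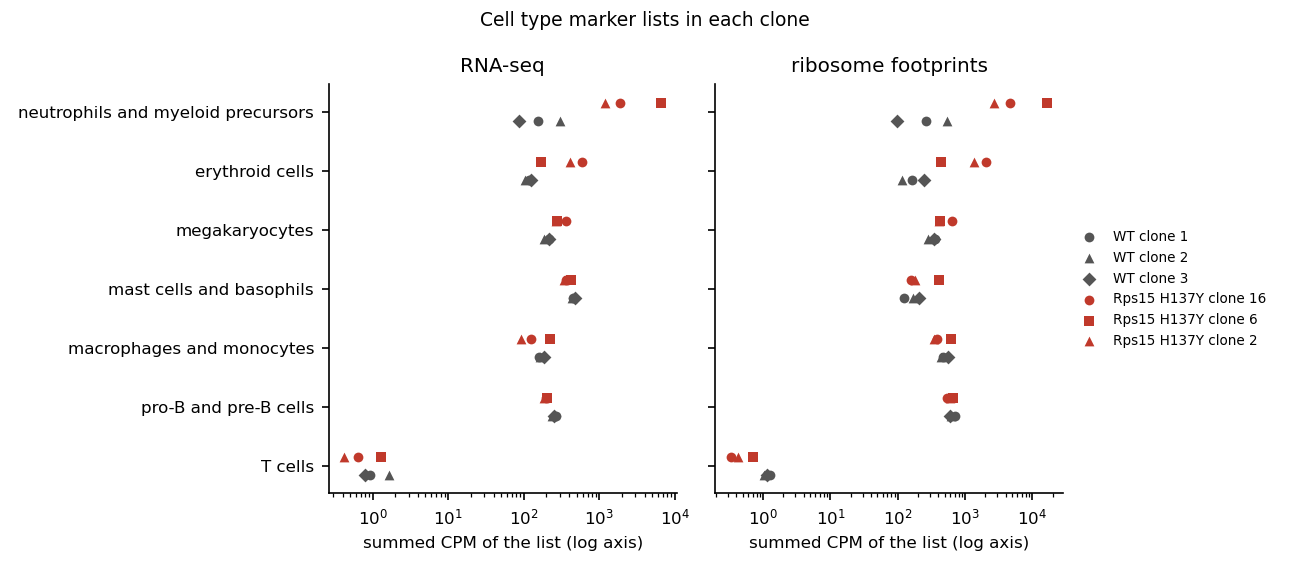
Symbols give the summed CPM of each marker list in each clone on a log axis, RNA at left and footprints at right, with WT in grey and Rps15 H137Y in red. Neutrophil and precursor markers reach 1182 to 6573 CPM in mutant RNA against 86 to 299 CPM in WT RNA, and erythroid markers 167 to 584 CPM against 103 to 124 CPM.

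Other genes named for large falls were of several kinds. Arnt2, a bHLH-PAS transcription factor, was at 16.1, 12.6 and 52.2 CPM of RNA in WT and 0.174, 0.32 and 0 CPM in H137Y (adjusted p 0.011, or 0.267 by limma voom). Tns4, a tensin of focal adhesions, was at 30.7, 37.6 and 5.09 CPM in WT and 0.58, 0.249 and 0.116 CPM in H137Y (adjusted p 0.00308, or 0.137 by limma voom). The mutant levels are too low for a fold to be given for either gene. Both varied several-fold among the WT clones. Every WT clone was above every mutant clone, a condition for being named. Dmpk, the myotonic dystrophy kinase, was at 76, 40.4 and 61.6 CPM in WT and 4.96, 3.66 and 6.09 CPM in H137Y (log2 change -3.60 with SE 0.30, adjusted p 4.67e-08). Gpr141, an orphan receptor of myeloid cells, was at 99.4, 124 and 126 CPM in WT and 5.08, 28.5 and 5.55 CPM in H137Y (log2 change -3.17 with SE 0.51, adjusted p 9.36e-05), and clone 6 was the mutant clone nearest to WT. Il16, a T-cell chemoattractant, was at 29, 29.8 and 32.7 CPM in WT and 2.49, 4.72 and 3.35 CPM in H137Y (log2 change -3.12 with SE 0.36, adjusted p 2.28e-06). Snrnp25, a protein of the minor spliceosome, was at 29.1, 29 and 28.7 CPM in WT and 5.69, 3.16 and 5.94 CPM in H137Y (log2 change -2.55 with SE 0.15, adjusted p 8.88e-11). Its WT values were nearly equal, and no mutant clone came near them.

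Further falls were seen in RNA or in footprints. Cfp, the complement factor properdin, fell by 2.50 in RNA, and its footprints were at 160, 104 and 180 CPM in WT and 28.6, 25.2 and 16.5 CPM in H137Y. Extl1, a heparan sulfate glycosyltransferase, was at 21.1, 20.4 and 29.5 CPM of RNA in WT and 0.725, 0.924 and 1.08 CPM in H137Y. In footprints, Aqp9, an aquaglyceroporin, was at 145, 148 and 227 CPM in WT and 19.9, 42.9 and 20.5 CPM in H137Y (log2 change -2.64 with SE 0.31, adjusted p 1.95e-05). Inhbe, an inhibin beta subunit gene, was at 13.6, 9.19 and 17.9 CPM in WT and 0.0444, 0.0746 and 1.94 CPM in H137Y, a call lost with only both genotypes in the fit. For all 4 genes the mutant clones lay below the WT clones, a condition for genes named by the size of their change. Podnl1 and Pi16 also fell in footprints, with log2 changes of -3.10 and -2.93.

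In the interleukin 3 and JAK-STAT list 6 of 35 rose and 10 fell in RNA, beside 21.2% and 20.1% of all genes. Pim2, a survival kinase induced by cytokines, was at 409, 386 and 451 CPM of RNA in WT and 70.4, 72.2 and 66.7 CPM in H137Y (log2 change -2.57 with SE 0.31, adjusted p 4.29e-06), and its footprints fell by 2.41. Pim1, a close relative named after its values were seen, did not pass (-0.12, adjusted p 0.545). Of the immediate early genes 7 of 34 rose and 10 fell in RNA, beside the same 21.2% and 20.1%. Dusp6, a phosphatase of ERK, was at 103, 106 and 114 CPM in WT and 46.6, 41.4 and 39.6 CPM in H137Y (log2 change -1.34 with SE 0.16, adjusted p 2.39e-06), and Egr3, an early growth response factor, fell by 2.06. Fosl1, an AP-1 subunit, rose by 1.60 in RNA and 1.76 in footprints. The early gene list was thus not uniform, and without WT clone 2 it held 10 RNA calls, 3 higher and 7 lower.

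Genes of MHC class I antigen presentation rose for 11 of 15 in RNA and 6 of 15 in footprints, with 0 lower at either level (medians 0.42 and 0.60). B2m, the invariant light chain, was at 746, 688 and 884 CPM of footprints in WT and 1548, 1323 and 1499 CPM in H137Y (log2 change 0.92 with SE 0.17, adjusted p 0.00163). H2-K1, a class I heavy chain, changed by 0.71 in RNA and 0.80 in footprints, Erap1, a peptide-trimming enzyme, by 0.66 and 0.78, and Nlrc5, the class I transactivator, by 1.32 in RNA. Cholesterol synthesis and uptake genes rose for 8 of 26 in RNA and 9 of 26 in footprints with 0 lower (medians 0.20 and 0.34). The shares called in this list were 30.8% in RNA and 34.6% in footprints, against 41.2% and 10.9% of all genes. Without WT clone 3 the cholesterol list had 1 footprint call, and without WT clone 2 the class I list had 3. The sterol regulatory element, searched as TCACNCCAC on both strands, was in 1 of 19 of these genes with a promoter window (5.26%) and in 1.44% of all genes with one.

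Mitosis and cyclin genes fell for 25 of 48 and rose for 5 in RNA (median -0.21), beside 20.1% and 21.2% of all genes tested. Ttk, the spindle checkpoint kinase, the kinesin Kif11 and the midzone protein Prc1 changed by -0.55, -0.60 and -0.65 in RNA, and Ccnd3, cyclin D3, by 0.65. Chaperones rose for 20 of 42 and fell for 2 in RNA (median 0.16), beside 21.2% and 20.1% of all genes tested. Hspa8, the constitutive Hsp70, was at 1055, 1075 and 978 CPM in WT and 1694, 2301 and 1829 CPM in H137Y (log2 change 0.91 with SE 0.11, adjusted p 2.74e-06), and Hspa5, the Hsp70 of the endoplasmic reticulum, rose by 0.52 in RNA and 0.74 in footprints. Of the p53 targets 4 of 33 rose and 9 fell in RNA, of the replication genes 9 of 62 rose and 15 fell, and of the glycolysis genes 2 of 23 rose and 6 fell, with medians of -0.06, -0.01 and -0.13. These lists had 39.4%, 38.7% and 34.8% of their tested members called, under the 41.2% of all genes tested. Without H137Y clone 6 the glycolysis list had 13 RNA calls.

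H137Y and P131S clones were also compared directly, because their comparisons with WT share the same WT clones. The direct contrast called 25.5% of genes in RNA, 3.73% in footprints and 0.952% in TE, which is 3273, 605 and 115 genes. With only these 2 genotypes in the fit the numbers were 364, 20 and 3, and without P131S clone 20 they were 2302, 292 and 17, while the full fit takes its spread from all 8 genotypes. Against WT, the Atf4 targets had medians of -1.02 in H137Y and -0.67 in P131S in RNA, and of -1.04 and -0.51 in footprints. In the direct contrast 14 of 35 members were lower in H137Y RNA and 0 higher, and 6 were lower in the fit of the 2 genotypes alone, 8 without P131S clone 20 and 9 without H137Y clone 2. In footprints 5 of 37 members were lower in H137Y and 1 higher. With only these 2 genotypes in the fit 0 members were called in footprints, and without P131S clone 20 1 was lower and 0 higher. For Nupr1 RNA the log2 difference of H137Y minus P131S was -3.14 (SE 0.666, adjusted p 0.0023). For Psat1, a serine synthesis enzyme, it was -0.78 (SE 0.154, adjusted p 0.00108) in RNA and -0.89 (SE 0.164, adjusted p 0.00315) in footprints. Of the aminoacyl-tRNA synthetases 8 of 22 were lower in H137Y RNA and 1 higher. That count rested on single clones: 2 were lower without P131S clone 20, 5 without H137Y clone 16 or clone 2 or with only both genotypes in the fit, and 14 without H137Y clone 6.

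For the mitochondrial lists the mutants differed in RNA. RNA was lower in H137Y than in P131S for 39 of 46 complex I genes, 35 of 39 complex III, IV and V genes (with 1 higher) and 57 of 78 mitochondrial ribosomal protein genes. Against WT the medians of these lists were -0.04, 0.04 and -0.02 in H137Y and 0.32, 0.42 and 0.23 in P131S. In the fit of the 2 genotypes alone 3, 2 and 3 genes of these lists were lower, and without P131S clone 20 the mitochondrial ribosomal proteins had 31 direct RNA calls. The replication-dependent histones moved the same way in both mutants. Against WT their medians were 1.62 in H137Y and 1.21 in P131S in RNA, and -1.42 and -1.06 in TE. In the direct contrast 3 of 56 were higher in H137Y RNA and 0 lower, and in TE 0 of 54 were higher and 2 lower. For H2bc21 RNA the log2 difference of H137Y minus P131S was 1.64 (SE 0.134, adjusted p 3.55e-08). In TE the log2 difference of H137Y minus P131S was 1.37 (SE 0.243, adjusted p 0.00223) for Ftl1 and -0.97 (SE 0.225, adjusted p 0.026) for Tmf1. For the TE changes of Arrdc3 and Runx3 the direct differences were -0.49 (SE 0.357, adjusted p 0.65) and 0.12 (SE 0.31, adjusted p 0.952). The TE changes against WT of these genes were -2.34 and -1.81 in H137Y and -1.85 and -1.93 in P131S.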

How the data were processed

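The authors deposited 1 table of estimated counts per gene for all 48 libraries, which had not been normalized: 88.5% of its values were whole, the rest had decimals. Per the submitters' processing notes the tools were STAR 2.6.1d, Salmon 1.4.0 and DESeq2 1.30, with genome build GRCm38. The feature counted, the strand setting and how multiply mapped reads were shared out are not given in the sources used here. Of 55487 genes, 32115 had a symbol in the table and 23112 took one from a table of gene names, while 260 had none.

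Estimated counts were rounded and tested with edgeR 4.0.16 (R 4.3.3) quasi-likelihood F tests, two-sided, with TMM scaling and 1 mean per genotype over the 24 libraries of an assay, which share 1 estimate of the spread. Genes needed 10 counts, scaled to library size, in at least 3 libraries and 15 in total. TE was the assay-by-genotype interaction, fitted to the 48 libraries over genes kept in both assays. Adjusted p-values are Benjamini-Hochberg values over all genes of a comparison, called under 0.05. Levels are CPM on TMM-scaled library sizes, and SE is the log2 change divided by the root of F. Library totals ran from 25317713 to 71443928 counts in the compared libraries, and genes under about 1 CPM are imprecise.

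The RNA and footprint library of a clone come from the same divided lysate, per the labels, so the clone pairs them. Deviations from the group means correlated at 0.09 to 0.46 for the 24 same-clone pairs and at -0.347 to -0.032 for the 48 pairs of different clones of a genotype. A fit with the clone as a replicate block was therefore run beside the TE result.

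Named genes passed in the full fit and in each of the 6 fits without 1 clone, had non-overlapping clones and a mean of at least 5 CPM, and were the 12 with the largest change in each direction. Gene symbols of predicted genes, Rik clones and pseudogenes were left out. Up to 4 members of each gene list with the smallest p, and Rps15, were also named. Some genes that these rules name are not reported here. The comparison, the lists and their members were chosen with earlier results of these data known. Alternatives were limma voom (limma 3.58.1), DESeq2 1.42.0, RLE scaling, no filter on low counts, only the libraries of both genotypes, leaving out each clone and, added after the data were seen, genes kept in either assay. The fits were tested on simulated data. Promoter sequences came from RefSeq tables of GRCm38.p6. Codon and amino acid composition were not analysed here.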

Additional observations from a re-analysis of the deposited data

Results flagged for a closer look

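For 9 of the genes named for TE, RNA and footprints both passed the test in opposite directions in H137Y against WT, and the difference between the levels was tested by the interaction that gives TE. The TE log2 change was 1.38 for Rab1a, 1.15 for Cers5, 1.14 for Tipin and 0.98 for Slc33a1, with lower RNA and higher footprints. It was -1.81 for Runx3, -1.77 for Tmf1, -1.62 for Klhl11, -1.47 for Zbtb6 and -1.35 for Chd2, with higher RNA and lower footprints, although clone 6 was not above WT in RNA for Zbtb6 and Chd2. Of these, the calls of Rab1a, Tmf1 and Klhl11 held at all 3 levels in each of the 6 fits without a clone, while the others lost the RNA or the footprint call in at least 1 such fit. The TE calls of all 9 held in those 6 fits, which was a condition for being named.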

How the results depend on the processing

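With 5282 genes called in RNA, the fits without 1 clone called 4356 to 5379 and the other alternatives 4213 to 5408. Footprints, with 1765 genes, gave 1028 (without WT clone 1) to 1320 (without H137Y clone 6) without 1 clone, 1194 with no filter and 2404 by DESeq2. TE, with 473 genes, gave 178 (without WT clone 2) to 387 without 1 clone, 248 with no filter (25 higher and 223 lower) and 878 with the replicate block, which pairs the libraries of a clone; with only both genotypes in the fit 68 were higher and 275 lower. The direct contrast with P131S gave 364 genes in RNA with only these genotypes in the fit, and 2302 to 3616 without 1 clone. In footprints it gave 1176 by DESeq2, 388 with no filter, 20 with only these genotypes and 292 to 651 without 1 clone. In TE it gave 267 by DESeq2, 34 with no filter, 3 with only these genotypes, 257 with the replicate block and 17 to 171 without 1 clone. Of single genes, 1 value changed sign: the RNA change of Atf4, -0.24 with all clones, ran from -0.39 (without H137Y clone 16) to 0.01 (without H137Y clone 6). Over all single-gene values, 465 lost their call under an alternative and 3 gained one. Among the genes named for the largest changes, limma voom lost 6 calls (Apc2 and Arnt2 in RNA and footprints, Mcpt8 and Tns4 in RNA), and the fit of only both genotypes lost 8 (Apc2, Mmp8, Ms4a3, S100a8, Inhbe and Gpr141 in footprints, Ncoa4 and Zbtb6 in TE). Where a count moved, the cause was not tested. Limits are the 3 clones per genotype, reads shared among gene copies, and genes with few counts in WT.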
